A study of Mus musculus with 6 samples.

Results

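The genes described here are 10 receptors and ligands of the immunoglobulin superfamily that restrain or assist immune cells: Btla, Lag3, Lair1, Cd200r1, Havcr2, Vsir, Cd274, Pdcd1lg2, Cd80 and Cd86. They were chosen by gene symbol, with earlier results of these data known, and all 10 were found among the 22271 genes of the deposited count table. Their counts of calls, set beside those of all genes, are therefore a description and not a test. Their mRNA was measured by RNA sequencing in 3 libraries of MOP cells and 3 libraries of MODP cells, both FACS-sorted out of marrow taken from C57BL/6JRj mice. The labels call the first population CD27 low and the second CD27 high, and CD27 is a surface receptor of the TNF receptor family. According to the series' title, macrophages and osteoclasts arise from a progenitor that descends from a common progenitor of macrophages, osteoclasts and dendritic cells; the design compares MOP with MODP. All libraries share the strain and are marked WT, and no treatment is given for any of them. The sources used here do not give the age or sex of the mice, the number of animals behind a library or any pooling, and the p-values cover no more than the library-to-library spread, some of which may be technical.

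Checkpoint receptors carry inhibitory motifs or adaptors in their tails and lower the activity of the cell that bears them when a ligand is bound, while ligands such as PD-L1, CD80 and CD86 act on T cells through PD-1, CD28 and CTLA-4. Many of these proteins are best known from T cells, but LAIR1, CD200R1, VISTA (Vsir), TIM-3 (Havcr2) and PD-L1 are also carried by myeloid cells. In mice, osteoclast formation has been tied to several of them, since CD200 acts on osteoclast precursors through CD200R1 and the binding of CTLA-4 to CD80 and CD86 on such precursors restrains their differentiation.

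MOP cells held more mRNA of most of these genes than MODP cells. Of the 10 members, 6 were higher in MOP by the quasi-likelihood test of edgeR, adjusted over the 12850 genes tested (Benjamini-Hochberg, threshold 0.05): Btla, Lag3, Lair1, Cd200r1, Vsir and Cd86. None was lower, and 0 were lower at an unadjusted p under 0.05, with DESeq2 or with limma voom. Cd274, Pdcd1lg2, Cd80 and Havcr2 did not pass. Over all 12850 genes, the share higher in MOP was 16.3% and the share lower was 14.9%, or 31.2% together. A call with at least a 2-fold rise was made for 4 members (Lag3, Cd86, Cd200r1 and Btla), against 3.84% of all genes. The median log2 fold change of the 10 members was 1.32, and that of all tested genes was -0.01. The 3 MOP libraries all stood above the 3 MODP libraries for 8 members, while Cd80 and Havcr2 overlapped; over all tested genes, MOP stood wholly above for 23.8% and wholly below for 23.8%. Havcr2, Pdcd1lg2 and Cd80 met the filter on low counts (about 10 counts in at least 3 libraries) through MOP, because fewer than 3 MODP libraries reached it, and none of these 3 was called.

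**Figure D1:**
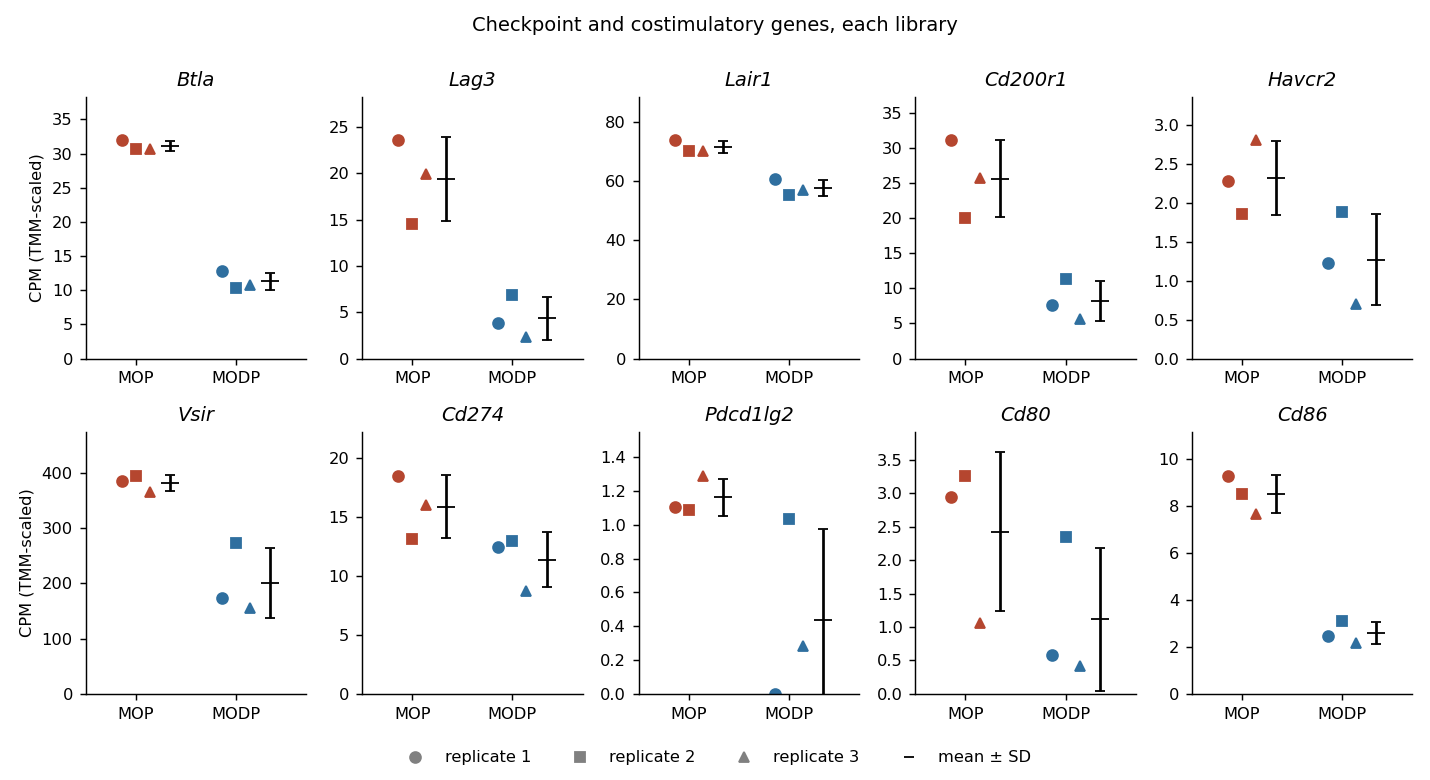
Each panel plots the level of 1 gene in CPM (counts per 1000000, with TMM-scaled library sizes) on the vertical axis and a marker for each library; the black bar is the mean ± SD of 3 libraries. MOP lies wholly above MODP in 8 panels, and the square of MODP replicate 2 is the highest MODP marker in 8 panels, all but Btla and Lair1.

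The libraries held 10701425 to 15892640 counts. Cd27, the sort marker, averaged 3.91 ± 0.571 CPM in MOP and 37.7 ± 1.99 CPM in MODP (SD, n = 3 each). Replicate 2 of each group stood apart from the other libraries on the second principal component of all tested genes, which held 22.9% of the variance (60.3% lay on the first, which separated the groups). Lyz2, the lysozyme of macrophages and neutrophils, stood at 2080 to 2671 CPM in MOP and at 554, 1660.3 and 372 CPM in MODP replicates 1, 2 and 3, whereas F13a1, another monocyte marker, was lowest in replicate 2 among the MODP libraries. Where leaving out that library, or replicate 2 of both groups, ends or adds a call for a member or moves its fold by over 1.5 times, the values without it are given; the part of other cell types in these results was not tested. In sorted populations measured in bulk, fewer cells that express a gene and less of its RNA per cell cannot be told apart.

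Among the inhibitory receptors, Btla, which binds the TNF receptor family member HVEM, had the smallest adjusted p. Its level was 32.0, 30.7 and 30.7 CPM in MOP replicates 1, 2 and 3, against 12.7, 10.3 and 10.8 CPM in MODP. The libraries of a group lay close together and far from the other group, with means of 31.1 ± 0.710 CPM in MOP and 11.3 ± 1.27 CPM in MODP (SD, n = 3 each). Btla was 2.75-fold higher in MOP, log2 1.46 ± 0.10 (SE, edgeR adjusted p = 0.000199). The call held in all 15 alternative fits, with edgeR adjusted p-values up to 0.0028 when a library was left out. By Pearson's r of log2 CPM over the 6 libraries, the 3 genes with a pattern most like that of Btla were Npc2, a lysosomal cholesterol carrier (r = 0.999), Cybc1, a chaperone of the phagocyte oxidase (r = 0.999), and H2-DMb1 of the peptide loading machinery (r = 0.998). The groups form separate clusters for these genes, so r reflects the gap between the groups, and their log2 fold changes were 0.48, 0.22 and 0.65.

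Lag3, a relative of CD4 that binds MHC class II, had the largest fold change of the 10. It stood at 23.6, 14.5 and 19.9 CPM in MOP replicates 1, 2 and 3, against 3.78, 6.87 and 2.32 CPM in MODP. The lowest MOP library and the highest MODP library were both replicate 2. This came to log2 2.19 ± 0.39 (SE, edgeR adjusted p = 0.0089), with means of 19.3 ± 4.54 CPM in MOP and 4.32 ± 2.32 CPM in MODP (SD, n = 3 each). Without MODP replicate 1 the edgeR adjusted p was 0.0503, just past the threshold of 0.05. When replicate 2 of both groups was left out, the log2 fold change was 2.85 (edgeR adjusted p = 0.00021). T and NK cells can express Lag3. The summed level of their 17 markers was 78.2 to 119 CPM in MOP and 248 to 335 CPM in MODP. Of 14 tested markers 8 were lower, beside 14.9% of all genes, and none was at 0 in all libraries. Most of the sum was Nkg7, at 85.5 ± 18.1 CPM in MOP and 227 ± 20.2 CPM in MODP (SD, n = 3 each). No other marker of this list averaged above the 10.8 CPM of Lck in MODP. Plasmacytoid dendritic cells can express Lag3 too, and their 10 markers summed to 122 to 148 CPM in MOP and 158 to 219 CPM in MODP, with 4 of 9 tested markers lower. The part of either cell type in the level of Lag3 was not tested.

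Cd200r1, the inhibitory receptor for CD200 that signals through Dok adaptors, stood at 31.1, 20.1 and 25.7 CPM in MOP replicates 1, 2 and 3, against 7.65, 11.3 and 5.69 CPM in MODP. The groups did not overlap, though replicate 2 was again lowest in MOP and highest in MODP. The rise was log2 1.66 ± 0.27 (SE, edgeR adjusted p = 0.0056), with means of 25.7 ± 5.52 CPM in MOP and 8.21 ± 2.84 CPM in MODP (SD, n = 3 each). The call held in all 15 alternative fits. Its paralogs Cd200r3 and Cd200r4, picked out here after their values were seen, were higher in MOP too. Cd200r3, an activating receptor of basophils and mast cells, averaged 113 ± 33.3 CPM in MOP and 5.58 ± 3.24 CPM in MODP, a log2 fold change of 4.37 ± 0.48 (SE, edgeR adjusted p = 0.0037). Cd200r4 averaged 6.13 ± 1.73 CPM in MOP and 1.52 ± 0.623 CPM in MODP, a log2 fold change of 2.03 ± 0.36 (SE, edgeR adjusted p = 0.0040). Of the 31-mers of Cd200r4, 9.57% occur in other genes, Cd200r1 first among them, so reads of these paralogs can be confused to some extent. Cd200r2 had 2 to 4 counts in each MOP library and 0 to 5 in each MODP library and was not tested. Basophils also carry CD200R1, and the summed level of 14 basophil and mast cell markers was 3709 to 5744 CPM in MOP and 717 to 1315 CPM in MODP. Of these, 10 of 11 tested markers were higher in MOP, beside 16.3% of all genes, led in abundance by the proteases Prss34 and Mcpt8. The mast cell proteases Mcpt4, Tpsb2 and Cma1 had 0 to 3 counts a library in both groups and were not tested. The part of basophils in the level of Cd200r1 was not tested.

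Lair1, the collagen receptor of leukocytes with inhibitory motifs in its tail, changed least among the called members. It stood at 73.9, 70.4 and 70.4 CPM in MOP replicates 1, 2 and 3, against 60.6, 55.5 and 57.1 CPM in MODP. The spread within a group was small, so that the groups stood apart by 1.24-fold (log2 0.31 ± 0.06, SE, edgeR adjusted p = 0.0070). The means were 71.5 ± 2.01 CPM in MOP and 57.7 ± 2.60 CPM in MODP (SD, n = 3 each), and the call held in all 15 alternative fits.

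Vsir, which encodes VISTA, an inhibitory protein of myeloid and T cells that serves as ligand and receptor, was by far the most abundant member. It stood at 385, 395 and 366 CPM in MOP replicates 1, 2 and 3, against 174, 273 and 156 CPM in MODP. MODP replicate 2 lay between the other MODP libraries and the MOP libraries. The means were 382 ± 14.5 CPM in MOP and 201 ± 63.4 CPM in MODP (SD, n = 3 each), a log2 fold change of 0.93 ± 0.23 (SE, edgeR adjusted p = 0.031). The call was lost without MOP replicate 1, 2 or 3 or without MODP replicate 1 or 3 (edgeR adjusted p 0.053 to 0.095) and without a filter on low counts (0.084). Without MODP replicate 2 the log2 fold change was 1.21 and the edgeR adjusted p 3.5e-05.

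Havcr2, which encodes TIM-3, a receptor for galectin-9 and phosphatidylserine, was low in both populations, at 2.28, 1.86 and 2.81 CPM in MOP replicates 1, 2 and 3 and at 1.23, 1.88 and 0.703 CPM in MODP. The groups overlapped, because MODP replicate 2 stood just above MOP replicate 2. The log2 fold change of 0.88 ± 0.38 (SE) did not pass (edgeR adjusted p = 0.11), and it rested on 10 to 37 counts a library. Without MODP replicate 2 it was 1.26 and passed (edgeR adjusted p = 0.028), as it did without replicate 2 of both groups (log2 1.41, edgeR adjusted p = 0.022). Only these 2 of the 15 alternative fits passed, and without MODP replicate 3 the log2 fold change was 0.57 (edgeR adjusted p = 0.30).

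Among the ligand genes Cd86, Cd80, Cd274 and Pdcd1lg2, Cd86 alone was called in the fit of all 6 libraries. All of their log2 fold changes were positive, and no difference between them was tested. Cd86, a ligand of CD28 and CTLA-4, stood at 9.28, 8.52 and 7.66 CPM in MOP replicates 1, 2 and 3, against 2.47, 3.10 and 2.18 CPM in MODP. All MOP libraries lay well above all MODP libraries, with means of 8.48 ± 0.809 CPM in MOP and 2.58 ± 0.474 CPM in MODP (SD, n = 3 each). Cd86 was higher by log2 1.72 ± 0.20 (SE, edgeR adjusted p = 0.00068), and the call held in all 15 alternative fits. Cd80, which binds the same receptors, was lower in level and more scattered, at 2.95, 3.27 and 1.06 CPM in MOP and 0.576, 2.35 and 0.422 CPM in MODP. Its groups overlapped, since MODP replicate 2 stood above MOP replicate 3, and its log2 fold change of 1.18 ± 0.70 (SE) did not pass (edgeR adjusted p = 0.25). It passed without MODP replicate 2 (log2 2.28, edgeR adjusted p = 0.016), without replicate 2 of both groups (log2 2.01, edgeR adjusted p = 0.037) and with the replicate number as a block (log2 1.22, edgeR adjusted p = 0.037). Only these 3 of the 15 alternative fits passed, and without MODP replicate 3 the log2 fold change was 0.76 (edgeR adjusted p = 0.49). Per kilobase of exons, the ratio of Cd86 to Cd80 was 3.19, 2.64 and 7.30 in MOP replicates 1, 2 and 3, and 4.33, 1.34 and 5.23 in MODP, so the groups overlapped in this ratio.

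Cd274, which encodes PD-L1, stood at 18.5, 13.1 and 16.0 CPM in MOP replicates 1, 2 and 3, against 12.4, 12.98 and 8.71 CPM in MODP. The groups nearly touched at replicate 2. The log2 fold change of 0.48 ± 0.18 (SE) did not pass (edgeR adjusted p = 0.079). With the replicate number as a block it passed (log2 0.49, edgeR adjusted p = 0.046), as it did without a filter on low counts (0.039), without MODP replicate 2 (log2 0.59, edgeR adjusted p = 0.0497) and without replicate 2 of both groups (log2 0.71, edgeR adjusted p = 0.022). Only these 4 of the 15 alternative fits passed, and without MODP replicate 3 the log2 fold change was 0.32 (edgeR adjusted p = 0.21). In the GENCODE M21 annotation 511 exon bases of Cd274 overlap an antisense gene, AC119228.1, and 15.4% of its 31-mers occur in other genes, so its counts are uncertain to that extent. Pdcd1lg2, the neighbouring gene, which encodes PD-L2, had 15, 17 and 17 counts in MOP replicates 1, 2 and 3 and 0, 11 and 4 counts in MODP. In CPM it stood at 1.10, 1.09 and 1.29 in MOP and at 0, 1.03 and 0.281 in MODP, where a count of 0 in MODP replicate 1 allows up to 0.251 CPM. The fitted log2 fold change of 1.46 ± 0.76 (SE) did not pass (edgeR adjusted p = 0.18). It passed, at 2.87, when MODP replicate 2 was left out (edgeR adjusted p = 0.013), and at 2.91 when replicate 2 of both groups was (edgeR adjusted p = 0.020). Only these 2 of the 15 alternative fits passed, and without MODP replicate 1 the log2 fold change was 0.88 (edgeR adjusted p = 0.32).

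**Figure D2:**
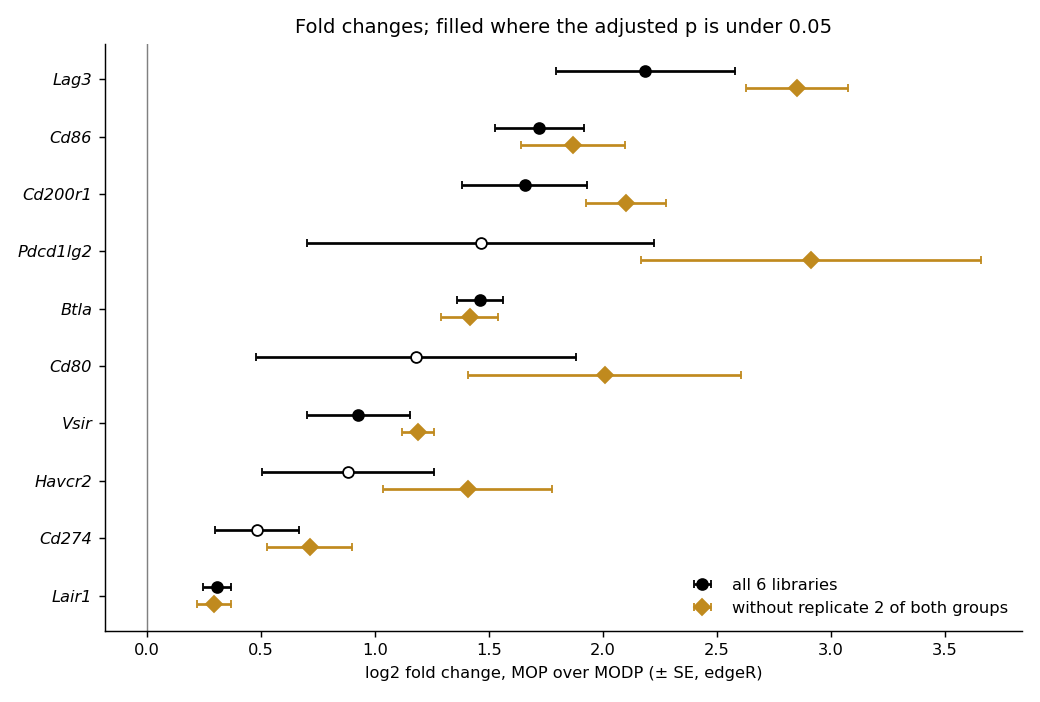
The log2 fold change of MOP over MODP (± SE, edgeR) is plotted for each gene with all 6 libraries (black circles) and without replicate 2 of both groups (gold diamonds), filled where the adjusted p is under 0.05. All 10 diamonds are filled, against 6 circles, but Pdcd1lg2, Cd80 and Havcr2 met the count filter through MOP alone; Btla and Lair1 hardly move, at 1.46 and 1.42 and at 0.31 and 0.29.

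Replicate 2 differed from the other libraries to an unequal degree among the members. MODP replicate 2 stood at 0.878 times the mean of the other MODP libraries for Btla and 0.943 times for Lair1. For the other 8 members this ratio was 1.23 (Cd274) to 7.36 (Pdcd1lg2), with 1.34 for Cd86, 1.66 for Vsir, 1.69 for Cd200r1, 1.94 for Havcr2, 2.25 for Lag3 and 4.72 for Cd80. MOP replicate 2 stood at 0.668 to 1.05 times the mean of the other MOP libraries for 9 members and at 1.63 times for Cd80. Without MODP replicate 2, or without replicate 2 of both groups, all 10 members were called higher in MOP, where the share of all genes called higher was 19.3% and 18.4%, in place of 16.3%. Pdcd1lg2, Cd80 and Havcr2, which met the filter through MOP in the fit of all 6 libraries, are among these 10, so their calls say less; in those fits Pdcd1lg2 rested on 0 and 4 MODP counts and Cd80 on 7 and 6. Leaving out any other single library gave 4 or 5 members, with 9.75% to 12.2% of all genes.

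Levels of different genes were set side by side per kilobase of exons. In both populations Vsir came first, at 76.2 ± 2.89 CPM per kilobase in MOP and 40.1 ± 12.6 in MODP (SD, n = 3 each), and Lair1 second, at 9.57 ± 0.268 in MOP and 7.72 ± 0.348 in MODP. In MOP, Lair1, Lag3 (9.17 ± 2.15), Btla (9.17 ± 0.209) and Cd200r1 (7.66 ± 1.65) followed Vsir, and each overlapped its neighbour in this order. Cd274 (4.38 ± 0.740) and Cd86 (2.32 ± 0.221) came next, each apart from its neighbours, and Havcr2, Cd80 and Pdcd1lg2 were last, at 1.03 or less in every MOP library. In MODP, Btla (3.33 ± 0.374), Cd274 (3.14 ± 0.640), Cd200r1 (2.45 ± 0.848) and Lag3 (2.05 ± 1.10) followed Lair1, each overlapping the next. The last 4 places were held by Cd86, Havcr2, Cd80 and Pdcd1lg2 in MODP, each overlapping the next. Lag3 was thus at place 3 of 10 in MOP and at place 6 in MODP. The order was the same when the length of the longest transcript was used instead.

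**Figure D3:**
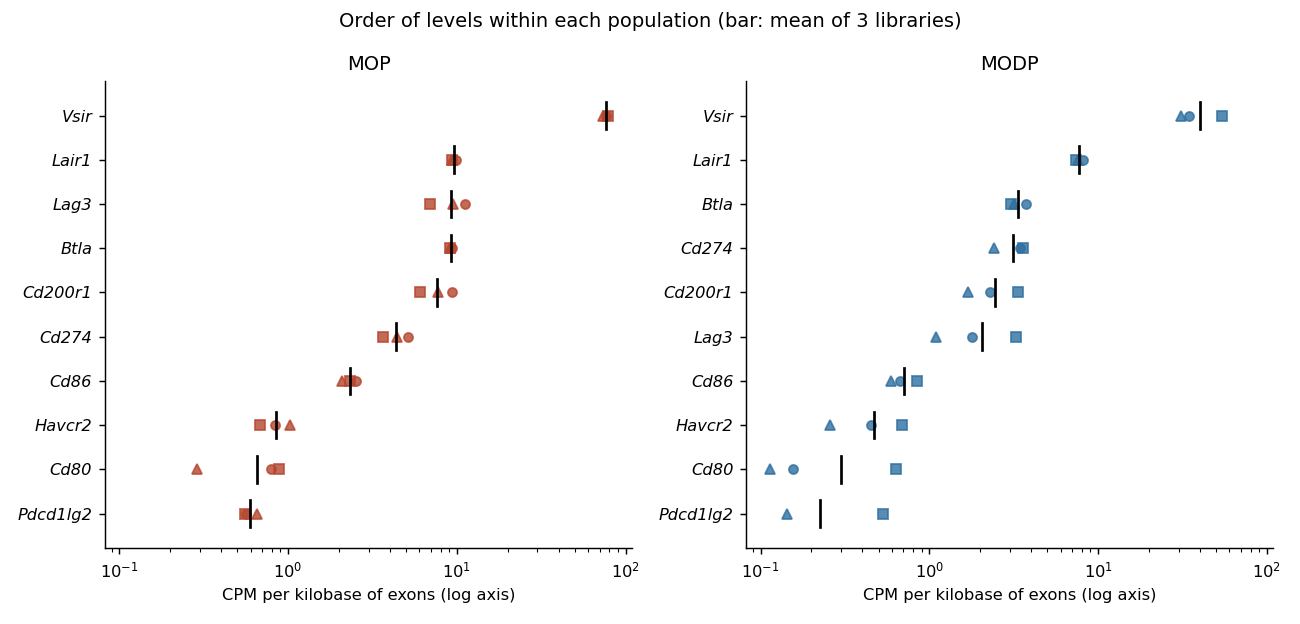
The level of each gene in CPM per kilobase of exons (log axis) is shown for MOP on the left and MODP on the right, with 1 marker per library and a bar at the mean; the count of 0 for Pdcd1lg2 in MODP replicate 1 cannot be drawn on a log axis. Vsir stands alone at the top of both panels, and Lag3 is at place 3 in MOP and at place 6 in MODP.

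Sequences before the transcription start are shown for the 3 called members that RefSeq's promoter table for build GRCm38.p6 holds, to set their letters beside their levels; the table held 7 of the 10 members, and Lag3, Cd200r1 and Cd86 are named only. Each line gives the 250 bases upstream of the start on the gene's own strand, 5′ to 3′, with matches to the motifs named below in capitals. The Btla sequence lies at chr16:45224087-45224336 on the plus strand, that of Lair1 at chr7:4063205-4063454 on the minus strand and that of Vsir at chr10:60346601-60346850 on the plus strand.
Btla: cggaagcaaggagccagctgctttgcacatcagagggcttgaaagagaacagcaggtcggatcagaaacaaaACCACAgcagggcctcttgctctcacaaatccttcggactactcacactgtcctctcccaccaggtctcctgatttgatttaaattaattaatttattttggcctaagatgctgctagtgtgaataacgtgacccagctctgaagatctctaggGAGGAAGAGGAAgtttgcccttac
Lair1: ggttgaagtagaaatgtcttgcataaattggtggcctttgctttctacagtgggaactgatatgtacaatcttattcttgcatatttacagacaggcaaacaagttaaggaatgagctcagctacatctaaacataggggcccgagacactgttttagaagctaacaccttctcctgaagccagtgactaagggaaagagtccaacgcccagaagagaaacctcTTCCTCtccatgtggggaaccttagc
Vsir: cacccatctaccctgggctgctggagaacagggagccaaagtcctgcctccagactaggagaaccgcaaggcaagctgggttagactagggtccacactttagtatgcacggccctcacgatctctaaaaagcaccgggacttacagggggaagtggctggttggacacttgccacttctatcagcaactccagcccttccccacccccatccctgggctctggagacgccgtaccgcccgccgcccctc

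Motifs were searched on both strands of these windows and of 32526 RefSeq promoters of the same length. For Havcr2 and Cd274, the bases just after the start were found in no GENCODE transcript of the gene. The windows of Havcr2 and Cd274 are therefore less certain to lie before a transcription start. GAGGAA, a core that PU.1 and other ETS factors bind, was found in 4 of the 7 members (Btla, Lair1, Havcr2 and Pdcd1lg2), and in 23.4% of all promoters. Btla held it in both a first copy, 24 bases before the start, and a directly adjoining copy 18 bases before it, and Lair1 held it 26 bases before the start, on the other strand. TGTGGT, a RUNX motif, was found in Btla and Havcr2 and in 14.0% of all promoters. TGANTCA, an AP-1 motif, was found in Havcr2 and Cd80 and in 6.73% of all promoters. An IRF repeat (GAAA, any 2 bases, GAAA) and TTCNNNGAA, a STAT motif, had no match in the 7 windows and occurred in 2.98% and 7.04% of all promoters. No 2 matches overlapped in these windows, and a match describes the letters alone. Vsir had no match to any of the 5 motifs.

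The genes beside the members in GENCODE M21 did not all move with them. Of the 17 coding genes next to a member and in the table, other than members themselves, 12 were tested, 4 were higher in MOP and 1 was lower. Over all 12850 tested genes the shares were 16.3% higher and 14.9% lower. Ptms, beside Lag3, rose by log2 1.60 ± 0.17 (SE, edgeR adjusted p = 0.0012), while Cd4 on its other side had a log2 fold change of -1.05 ± 0.53 that did not pass (edgeR adjusted p = 0.18). Lilra6, an activating receptor gene beside Lair1, rose by log2 2.25 ± 0.24 (SE, edgeR adjusted p = 0.00057). Of the 31-mers of the gene Pirb, 45.6% occur in other genes, Lilra6 first among them. Reads of Lilra6 and Pirb can therefore be confused to some extent. The other neighbours that passed were Cd200r4 and, beside the pair of Cd274 and Pdcd1lg2, Plgrkt (log2 0.33, edgeR adjusted p = 0.011), which was higher, and Ric1 (log2 -0.21, edgeR adjusted p = 0.036), which was lower.

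Proteins that bind the members were described next, from a list of 21 genes of which 19 were in the table and 12 were tested. Of these 12, 3 were higher in MOP and 0 were lower (0 also at an unadjusted p under 0.05, with DESeq2 and with limma voom), with a median log2 fold change of 0.56. Over all tested genes, 16.3% were higher and 14.9% lower. Leaving out replicate 2 moved the count of higher genes to 9 (MODP library alone) and 7 (both groups). In those fits 19.3% and 18.4% of all genes were called higher. Tnfrsf14, which encodes HVEM, the ligand of BTLA, averaged 51.7 ± 6.68 CPM in MOP and 27.4 ± 3.02 CPM in MODP (SD, n = 3 each), a log2 fold change of 0.91 ± 0.12 (SE, edgeR adjusted p = 0.0011). Selplg, which encodes PSGL-1, a selectin ligand that also binds VISTA, averaged 655 ± 69.4 CPM in MOP and 345 ± 40.0 CPM in MODP (log2 0.92 ± 0.10, SE, edgeR adjusted p = 0.00080). Lgals3, which encodes galectin-3, a ligand of LAG-3, averaged 263 ± 17.5 CPM in MOP and 50.9 ± 26.8 CPM in MODP, a log2 fold change of 2.38 ± 0.41 (SE, edgeR adjusted p = 0.015); its edgeR adjusted p was 0.059 without MOP replicate 1 and 0.060 without MODP replicate 1. Lgals9, the galectin that binds TIM-3, averaged 160 ± 22.8 CPM in MOP and 188 ± 17.8 CPM in MODP and did not pass (log2 -0.23, edgeR adjusted p = 0.17); with the replicate number as a block it was called lower (edgeR adjusted p = 0.0075), as it was with the number in the sample titles as a block (0.0185) and without replicate 2 of both groups (0.039). Hence receptor and ligand genes of the BTLA pair were both higher, while those of the TIM-3 pair were not called in the fit of all 6 libraries.

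MHC class II, which LAG-3 recognises, was read from H2-Aa, which encodes one of its chains. H2-Aa averaged 49.9 ± 9.98 CPM in MOP and 30.05 ± 28.6 CPM in MODP (SD, n = 3 each), with 62.9 CPM in MODP replicate 2 against 16.0 and 11.2 CPM in MODP replicates 1 and 3. It did not pass (log2 0.75, edgeR adjusted p = 0.51) but was called higher in MOP when that MODP library was left out (log2 1.88, edgeR adjusted p = 0.0034) and when replicate 2 of both groups was (log2 1.73, edgeR adjusted p = 0.0013). Among the receptors that T cells use to read the member ligands, Pdcd1 (PD-1) had 1 count in each MOP library and 1, 10 and 1 counts in MODP replicates 1, 2 and 3, Ctla4 had 1 to 4 counts in each MOP library and 2 to 6 in each MODP library, and neither was tested. Cd28 averaged 6.80 ± 1.33 CPM in MOP and 5.37 ± 1.63 CPM in MODP and did not pass (edgeR adjusted p = 0.34). Cd200, the ligand of CD200R1, had 2 to 17 counts in each MOP library and 3 to 10 in each MODP library and was not tested.

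Other checkpoint and costimulatory genes moved both ways. Of 45 listed genes, 42 were in the table and 29 were tested. Of these, MOP had 11 higher and 3 lower while 15 were not called, with a median log2 fold change of 0.42. These counts stand beside 16.3% higher and 14.9% lower over all tested genes. Sirpa, the inhibitory receptor for CD47 on myeloid cells, rose to 313 ± 10.6 CPM in MOP, against 205 ± 23.5 CPM in MODP (SD, n = 3 each; log2 0.61 ± 0.08, SE, edgeR adjusted p = 0.0014). Icosl, the costimulatory ligand of ICOS, averaged 39.8 ± 1.79 CPM in MOP and 19.7 ± 4.05 CPM in MODP (log2 1.02 ± 0.14, SE, edgeR adjusted p = 0.0017). Milr1, an inhibitory receptor of mast cells, rose by log2 0.51 ± 0.07 (SE, edgeR adjusted p = 0.0018). The 3 lower genes, Cd96, Cd5 and Cd6, are known from T and NK cells. Cd96 averaged 0.596 ± 0.297 CPM in MOP and 3.69 ± 0.178 CPM in MODP, a log2 fold change of -2.59 ± 0.35 (SE, edgeR adjusted p = 0.0014). The T and NK marker sum given above, which itself includes Cd5 and is mostly Nkg7, was lower in MOP too. The part of these cells was not tested. The count of higher genes was 7 without MODP replicate 1, 14 without MODP replicate 2 and 16 when replicate 2 was left out of both groups. The shares of all genes called higher in these fits were 11.2%, 19.3% and 18.4%.

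**Figure D4:**
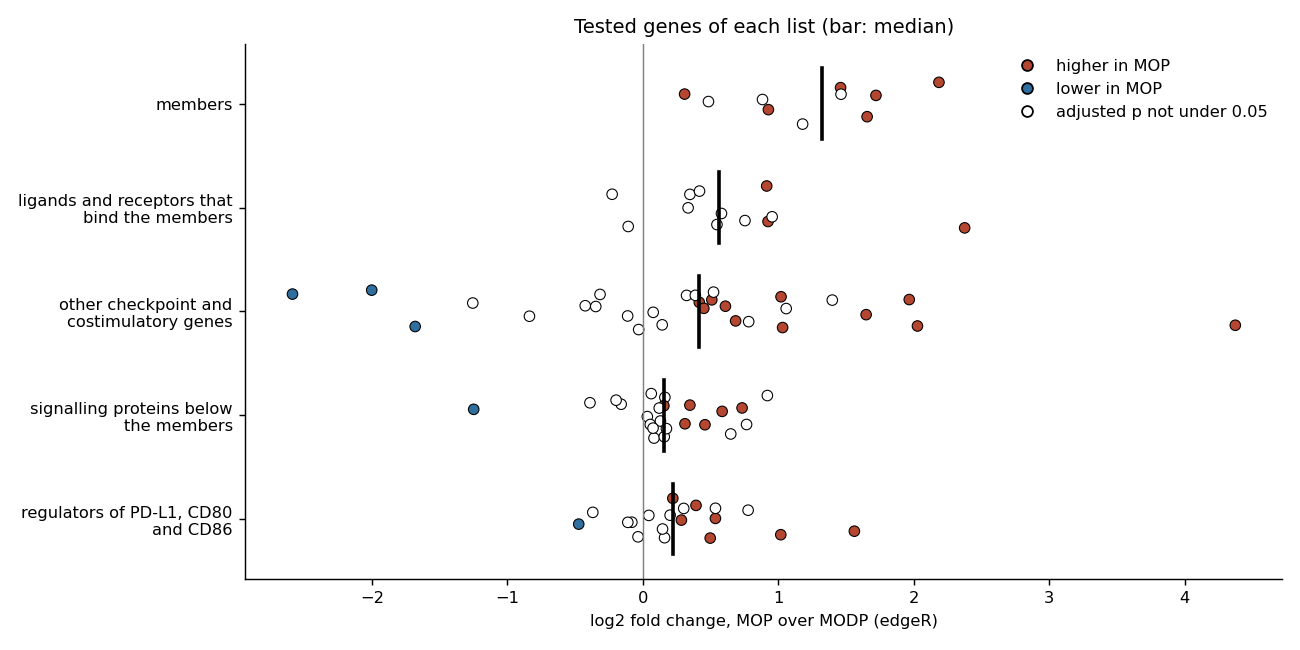
Each point is 1 tested gene, placed by its log2 fold change of MOP over MODP (edgeR), coloured where the adjusted p is under 0.05, with a bar at the median of the list. The medians are 1.32 for the members, 0.56 for their binding partners, 0.42 for the other checkpoint genes, 0.16 for signalling proteins and 0.22 for regulators.

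Signalling proteins that act below these receptors ranged in level from Pik3cd, at 431 ± 30.6 CPM in MOP and 338 ± 19.1 CPM in MODP (SD, n = 3 each), to Src, at 0.561 ± 0.0957 CPM in MOP and 1.36 ± 0.407 CPM in MODP. Of 24 listed genes 23 were tested, and MOP had 6 of them higher and 1 lower while 16 were not called, with a median log2 fold change of 0.16. The shares over all tested genes were 16.3% higher and 14.9% lower. Ptpn6, which encodes SHP-1, the phosphatase that inhibitory motifs recruit, averaged 346 ± 3.63 CPM in MOP and 252 ± 19.2 CPM in MODP (SD, n = 3 each; log2 0.46 ± 0.06, SE, edgeR adjusted p = 0.0016). Lyn, a Src family kinase that phosphorylates such motifs, rose by log2 0.73 ± 0.10 (SE, edgeR adjusted p = 0.0013), Dok3, an adaptor of the Dok family, by 0.59 ± 0.10 (edgeR adjusted p = 0.0042) and Pik3cd, a kinase subunit of phosphoinositide signalling, by 0.35 ± 0.07 (edgeR adjusted p = 0.0068). Of the 31-mers of Lyn, 26.6% occur in other genes, and of those of Ptpn6, 7.51%. Lyn, Ptpn6 and Milr1 each overlap a gene on the other strand, so their counts are uncertain to that extent. The lower gene, named after its values were seen, was the kinase gene Src, on 6 to 21 counts a library (log2 -1.25, edgeR adjusted p = 0.036); its call was lost in all fits without a library except that without MODP replicate 1 (edgeR adjusted p 0.074 to 0.11), by DESeq2 (0.14), with no low-count filter (0.058) and without replicate 2 of both groups (0.085). Ptpn11 (SHP-2) and Inpp5d (SHIP-1) did not pass (edgeR adjusted p = 0.25 and 0.46). With the replicate number as a block or without MODP replicate 2, 10 signalling genes were called higher, and the block called 3 lower. The block called 21.2% of all genes higher and 2544 of 12850 lower, and 19.3% were higher without MODP replicate 2.

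Genes that control PD-L1, CD80 and CD86 were called higher more often than lower. Of 21 listed, 19 were tested, and MOP had 7 of them higher and 1 lower while 11 were not called, with a median log2 fold change of 0.22. Among all tested genes 16.3% were higher and 14.9% lower. Jak2, a kinase of the interferon gamma and GM-CSF receptors, rose to 244 ± 30.1 CPM in MOP, against 120 ± 7.53 CPM in MODP (SD, n = 3 each; log2 1.02 ± 0.09, SE, edgeR adjusted p = 0.00038). The chains of the interferon gamma receptor went opposite ways, with Ifngr2 at log2 0.54 ± 0.08 (edgeR adjusted p = 0.0021) and Ifngr1 at -0.47 ± 0.06 (edgeR adjusted p = 0.00088). Cmtm6, which protects PD-L1 from lysosomal breakdown, rose by log2 0.50 ± 0.09 (SE, edgeR adjusted p = 0.0046). Marchf1, a ubiquitin ligase that removes CD86 and MHC class II from the surface, was singled out after its values were seen. It averaged 30.7 ± 3.52 CPM in MOP and 10.5 ± 5.22 CPM in MODP (log2 1.56 ± 0.38, SE, edgeR adjusted p = 0.029). Of its exon bases, 546 overlap an antisense gene, so its counts are uncertain to that extent. The Marchf1 call was lost when any MOP library or the first MODP library was left out (edgeR adjusted p 0.064 to 0.10) and without a filter on low counts (0.089). The count of higher genes was 3 without MOP replicate 3, 4 without MOP replicate 1 or 2, without MODP replicate 3 or under upper-quartile scaling, and 11 with the replicate number as a block. The lower genes were 1 or 2 in these fits. Of all genes, 12.2% were called higher without MOP replicate 3 or 2, 9.75% without MOP replicate 1 and 11.8% without MODP replicate 3. The share was 13.2% under upper-quartile scaling and 21.2% with the block.

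Markers of other marrow cells were read beside the members. Over all tested genes, 16.3% were higher in MOP and 14.9% lower, which is the background for the counts below. Monocyte and macrophage markers, 16 genes that include F13a1 and Lyz2, summed to 7693 to 8186 CPM in MOP and 3263 to 4383 CPM in MODP, with 8 of 16 higher. Conventional dendritic cells express Btla, Cd80 and Cd86. The 14 markers of these cells, led by Cd24a and Cd74, summed to 768 to 1000.3 CPM in MOP and 572 to 1019 CPM in MODP, so the sums overlapped. Cd24a was the largest part of the sum, at 424 ± 91.1 CPM in MOP and 436 ± 109 CPM in MODP (SD). Of 13 tested, 4 were higher and 1 was lower. The higher genes, named after their values were seen, were Naaa (log2 2.43), Cd209a (2.07), Zbtb46 (1.68) and Clec10a (0.83). B lineage cells express Btla, Cd80 and Cd86 as well. The 10 markers of B lineage cells summed to 47.6 to 94.1 CPM in MOP and 49.2 to 151 CPM in MODP, where 151 CPM was the value of MODP replicate 2. None of the 10 was called by edgeR, DESeq2 or limma voom, and 0 had an unadjusted p under 0.05. All 10 log2 fold changes were negative, from -1.29 to -0.26, with a median of -0.78. Neutrophil markers summed to 14245 to 23609 CPM in MOP and 25851 to 37278 CPM in MODP, highest in MODP replicate 2, and 4 of 13 were lower. Erythroid and megakaryocyte markers summed to 552 to 759 CPM in MOP and 190 to 461 CPM in MODP, with 6 of 11 tested higher, and early progenitor markers to 474 to 519 CPM in MOP and 1197 to 1324 CPM in MODP, with 10 of 12 lower. The early progenitor list includes Cd27, on which the cells were sorted. It also shares Flt3 with the conventional dendritic list, where Flt3 was the 1 lower gene. Whether cells of these kinds account for any of the member levels was not tested.

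**Figure D5:**
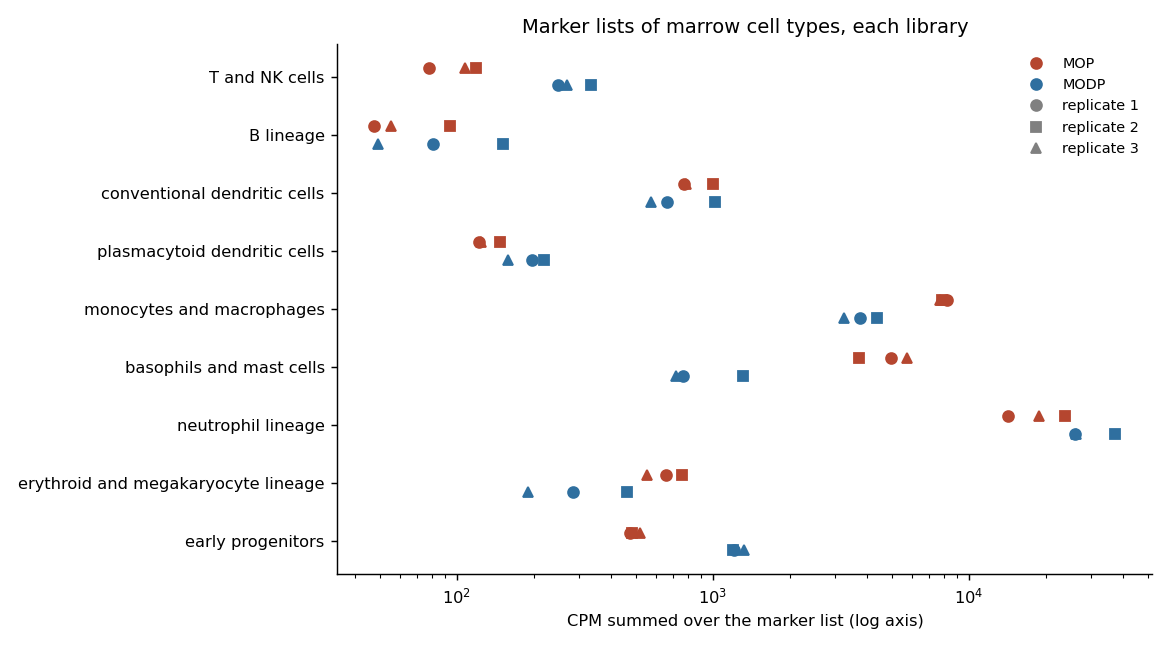
CPM summed over each marker list is plotted on a log axis for every library, in red for MOP and blue for MODP. MODP replicate 2 (blue square) is the highest MODP library for the T and NK, B lineage, dendritic (both lists), monocyte, basophil, neutrophil and erythroid lists, and MOP and MODP are widest apart for basophils and mast cells.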

How the data were processed

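The values are raw counts, whole numbers for each Ensembl gene that the authors deposited without scaling. TopHat 1.4 and HTSeq are named in the submitters' processing notes. Build, annotation and strand setting are not stated there, so a gene and an antisense gene cannot be told apart. Symbols came from GENCODE M21 and matched 20840 of 22271 identifiers. Groups followed the cell type label. The columns of replicate 3 read WT3 where the sample titles read WT1; library number and P code matched them.

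CPM values were computed with TMM-scaled library sizes (edgeR 4.0.16, R 4.3.3). filterByExpr (minimum count 10) kept 12850 genes. MOP was compared with MODP by the robust quasi-likelihood test of edgeR, with no factor other than group; p-values were adjusted by Benjamini-Hochberg across the 12850 genes (threshold 0.05), and standard errors are from that fit. Alternatives used DESeq2 1.42.0, limma 3.58.1 voom, other scalings and filters, blocks and left-out libraries. The test was checked on simulated counts of independent libraries with 200 changed genes. That check does not cover libraries that deviate together across the groups, or changes in a large share of genes.

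Same-numbered libraries deviated together over 9351 genes (r = 0.59, 0.61 and 0.51, other pairs -0.45 to 0.05). Column names share WT numbers between the groups, but no label says what the numbers stand for, and the titles number replicate 3 differently. The main fit therefore has no block, and the column numbers were a block in an alternative fit. That block called 2724 genes higher in MOP, against 2095 in the main fit. The blocked value is given where it changed a call. No pair of libraries within a group agreed within sampling noise (chi-square per degree of freedom 7.35 to 34.7). Per-length levels used all exons in GENCODE M21. Shared 31-mers were counted from each gene's longest transcript against all other genes. Intervals at a count of 0 allow 3 counts and cover counting error only.

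The members and gene lists were chosen with earlier results of these data known. The text names all members, up to 4 genes of each other list by smallest adjusted p, genes that bind a member and the most abundant markers; others are said to be chosen afterwards, as were Cd5, Cd6, Src, Ptpn11, Inpp5d and the neighbouring genes.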

Additional observations from a re-analysis of the deposited data

How the results depend on the processing

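The 6 members called higher in MOP were 6 under RLE size factors, upper-quartile scaling, both other filters, DESeq2, limma voom and the title number as a block, though not always the same genes: without a filter on low counts Cd274 was called and Vsir was not. With the replicate block (column number) 8 were called, and 21.2% of all genes. Without replicate 2 of both groups 10 were called, and leaving out 1 library in turn gave 4 to 10, with 10 without MODP replicate 2. Over all genes the share called higher was 18.4% without replicate 2 of both groups and 9.75% to 19.3% with 1 library left out. The 10 include 3 members that met the filter through MOP in the fit of all libraries. No member was lower in any of these fits, and no fold change of a member changed sign. Of 150 alternative values over the 10 members, 132 kept their side of the threshold, 7 lost and 11 gained a call. Of the 83 tested genes on the other lists, 27 were higher in MOP and 5 were lower, beside 16.3% and 14.9% of all genes. The higher genes were 41 without replicate 2 of both groups and 20 to 42 with 1 library left out; the lower genes were 10 with the replicate block (column number), 8 with the title number as a block and 4 to 7 with 1 library left out. The causes of these shifts were not tested. Over all genes, the split of 2095 higher and 1913 lower became 1692 and 2452 under upper-quartile scaling, and 1281 and 1036 without MOP replicate 1. Cd80, Havcr2 and Pdcd1lg2 rest on 0 to 51 counts a library, which limits what can be said of them.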
